A study of Arabidopsis thaliana with 12 samples.

Results

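Within each of 4 Arabidopsis thaliana genotypes, the RNA library numbered replicate 1 carried higher levels of heat shock, touch and defence genes than the libraries numbered 2 and 3. The results describe those 4 libraries of replicate 1 against the other 8, out of 12 in all. The groups were the hybrids C24/Col and Col/C24 and the parental ecotypes C24 and Col, each with 1 library of replicate 1 and 2 libraries of replicates 2 and 3. No transgene, mutation or treatment is given for any group, and which parent of each hybrid was the mother is not given in the sources used here. All libraries came from polyadenylated RNA of shoots of seedlings aged 14 days, grown in 8 h light at 22 °C and 16 h dark at 18 °C. The labels give neither the pots, days or plants behind a replicate number nor any stress treatment. The libraries of replicate 1 were chosen by their expression values, so their difference from the other libraries is described without a test. Tests were run on what that choice did not use, which is how the genotypes differed in the size of the difference and in their level without replicate 1.

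In plants, heat shock factors switch on chaperones, among them the small heat shock proteins, HSP70, HSP90 and HSP101, which hold or refold damaged proteins. Calcium influx, touch, wounding and perceived microbes set off a faster programme of calmodulin-like proteins, WRKY, ERF and zinc finger transcription factors, MAP kinases and cell wall enzymes within minutes. Jasmonate, ethylene and salicylic acid are the hormones that carry much of that programme onwards.

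Levels are in RPKM, reads per kilobase of gene scaled to the mapped reads of the library, as deposited. A replicate 1 difference is the value of log2(RPKM + 1) in replicate 1 minus the mean of replicates 2 and 3 of the same genotype, a scale that understates changes of low genes. Of 17927 genes with at least 1 RPKM in 3 or more libraries, 2404 (13.4%) had replicate 1 above both other libraries in every genotype, and 2513 (14.0%) had it below both. A gene was called higher or lower where, besides this, the differences of the 4 genotypes averaged at least 1 in size. That held for 451 genes called higher (2.52%) and for 6 called lower (0.0335%). At an average of at least 1.5-fold the counts were 940 higher (5.24%) and 80 lower (0.446%). The larger changes were thus mostly rises. Since the same contrast chose the libraries, these shares are a description and support nothing. The 4 libraries of replicate 1 alone can meet the filter, so a gene can be tested because it is high there. Just inside the threshold stood AT3G15200, a gene of a tetratricopeptide repeat-like protein, with 0.65 to 1.29 in the 4 genotypes. Just outside stood NDR1, a membrane protein of disease resistance, with 0.63 to 1.31.

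Estimated depths overlapped, at 18.4 to 22.7 M reads (M being 1e6) in replicate 1 and 15.45 to 26.95 M in replicates 2 and 3. The share of ribosomal RNA genes in the summed RPKM was uneven in both sets, at 0.316% to 2.471% in replicate 1 and 0.231% to 4.485% in the others. Without the 4 libraries above 2%, 455 genes were called higher and 13 lower. Col and Col/C24 then had no library of replicate 1, so the call asked for agreement in 2 genotypes only, C24 and C24/Col. Of the genes called higher with all libraries, 396 were among the 455. As the rule was laxer, the similar count does not show that the call was unaffected by ribosomal RNA. Leaf tissue was present throughout, as the 44 photosynthesis genes summed to 124000 to 147000 RPKM in replicate 1 and 136000 to 170000 RPKM in the other libraries. Of 8 flower markers 1 reached 1 RPKM in 3 libraries, and the 8 summed to 1.9 to 3.66 RPKM in replicate 1 and 1.49 to 4.72 RPKM in the others. The 8 root markers summed to 71.3 to 109 RPKM in replicate 1 and 75.4 to 113 RPKM in the others, nearly all of it from PYK10, a beta-glucosidase. Seed storage genes were patchy, with CRA1 (cruciferin) at 27.6 RPKM in Col/C24 replicate 1 and 50.4 RPKM in C24/Col replicate 3. In such shoot RNA, fewer cells of a type and less RNA per cell cannot be told apart.

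**Figure D1:**
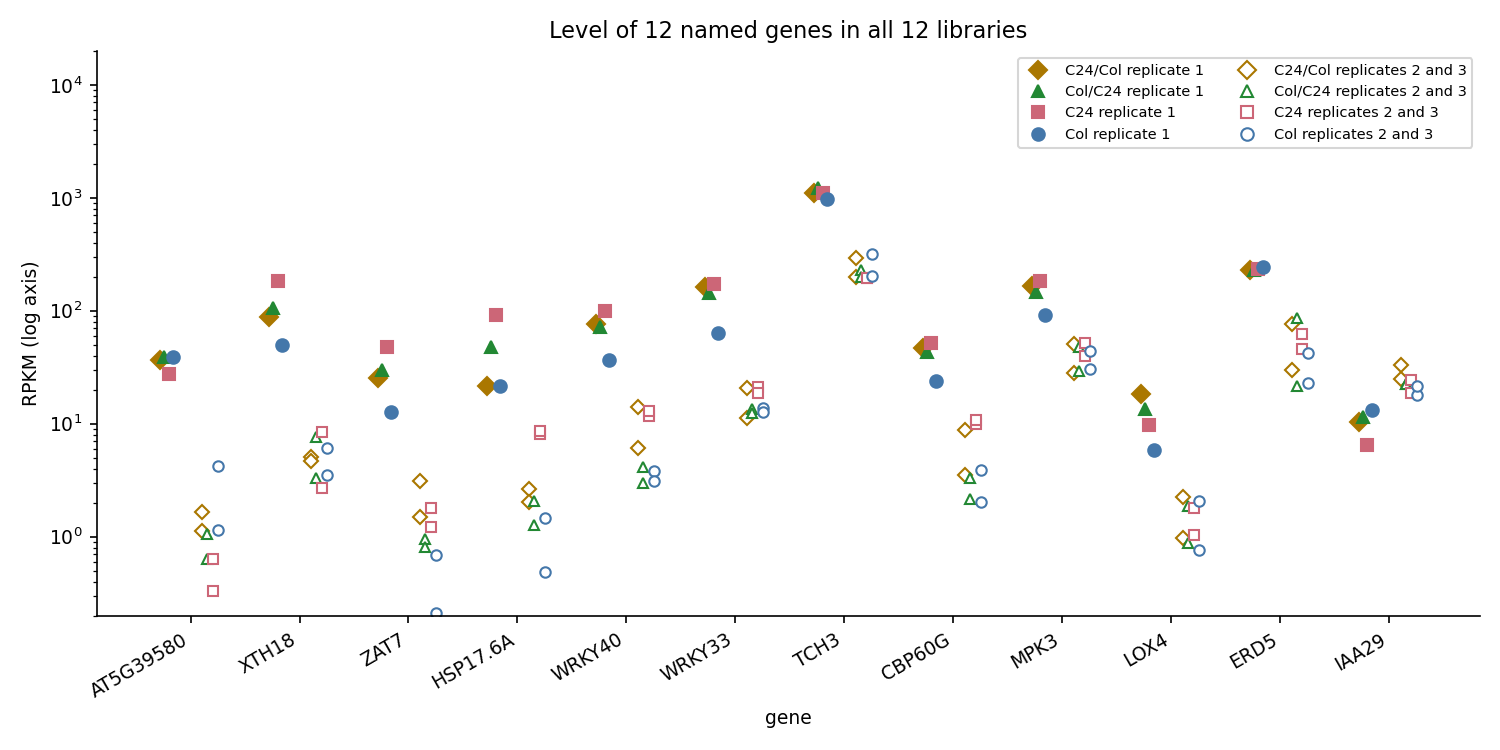
RPKM on a log axis of 12 named genes in all 12 libraries, with filled symbols for replicate 1 (left in each pair) and open symbols for replicates 2 and 3, and with colour and shape for the genotype. For the first 11 genes every filled symbol lies above every open one, and for IAA29, at the right, every filled symbol lies below; 1 value of ZAT7, 0.21 RPKM in Col replicate 3, is at the foot of the axis.

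The largest rise was that of AT5G39580, a gene of the peroxidase family. It had 36.4 RPKM in C24/Col, 39.2 in Col/C24, 27.4 in C24 and 39.0 in Col in replicate 1, against 0.33 to 4.26 RPKM in the 8 other libraries. The groups did not overlap, and the mean difference was 4.07 ± 0.38 (SD over 4 genotypes). XTH18, a xyloglucan endotransglucosylase that remodels the cell wall, followed with 88.2 RPKM in C24/Col, 107 in Col/C24, 184 in C24 and 49.6 in Col in replicate 1. Its other 8 libraries lay at 2.72 to 8.47 RPKM, and its mean difference was 4.05 ± 0.74. XTR6, an enzyme of the same family, reached 17.2 to 111 RPKM in replicate 1 and 1.29 to 13.9 RPKM in the others (3.17 ± 0.80). Genes annotated with the word xyloglucan were called higher in 5 of 23 tested cases (21.7%), against 2.52% of all tested genes.

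ZAT7, a repressor of the C2H2 zinc finger class, had 25.3 RPKM in C24/Col, 29.7 in Col/C24, 48.0 in C24 and 12.7 in Col in replicate 1, against 0.21 to 3.09 RPKM in the others (3.66 ± 0.60). MIOX2, which opens the ring of myo-inositol, had the most even difference of the leading genes across genotypes. It stood at 144, 135, 153 and 160 RPKM in replicate 1 of C24/Col, Col/C24, C24 and Col, against 5.73 to 31.2 RPKM in the others (3.10 ± 0.17). FBS1, an F-box protein named for its induction by stress, had 28.0 to 47.3 RPKM in replicate 1 and 1.82 to 6.66 RPKM in the others (3.08 ± 0.44).

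The promoters of 6 genes called higher, picked because they carry the motif marked, show the short motifs counted over all rises. Each run is the 250 bases before the annotated start, read 5′ to 3′ on the gene's strand from the RefSeq assembly TAIR10.1, a Col sequence. The C24 sequence was not analysed here, and the deposited files hold no coordinates. In the first pair, of small heat shock proteins, capitals mark the heat shock element GAANNTTC. In the next pair, the 2 largest rises, they mark CGCGTT, known as the rapid stress response element, or its complement AACGCG. In the last pair they mark the W-box core TTGAC, or its complement GTCAA, to which WRKY factors bind.
HSP17.4, chr3:16984868-16985117, minus strand: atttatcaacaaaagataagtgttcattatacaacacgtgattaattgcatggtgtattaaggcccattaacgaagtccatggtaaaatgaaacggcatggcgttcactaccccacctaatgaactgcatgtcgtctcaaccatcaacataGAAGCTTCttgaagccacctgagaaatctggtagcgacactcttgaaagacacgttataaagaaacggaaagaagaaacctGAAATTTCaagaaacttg
HSP17.6C, chr1:19980049-19980298, plus strand: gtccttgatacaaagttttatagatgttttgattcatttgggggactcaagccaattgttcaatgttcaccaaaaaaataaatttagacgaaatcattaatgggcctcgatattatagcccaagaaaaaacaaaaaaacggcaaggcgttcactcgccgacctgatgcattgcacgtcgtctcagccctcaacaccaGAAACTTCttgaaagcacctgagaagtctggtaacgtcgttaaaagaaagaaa
AT5G39580, chr5:15849142-15849391, minus strand: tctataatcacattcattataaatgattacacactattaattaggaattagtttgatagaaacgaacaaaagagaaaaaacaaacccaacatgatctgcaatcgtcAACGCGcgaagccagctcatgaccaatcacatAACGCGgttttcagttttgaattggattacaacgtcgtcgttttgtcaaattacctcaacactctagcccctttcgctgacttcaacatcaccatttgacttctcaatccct
XTH18, chr4:14827212-14827461, minus strand: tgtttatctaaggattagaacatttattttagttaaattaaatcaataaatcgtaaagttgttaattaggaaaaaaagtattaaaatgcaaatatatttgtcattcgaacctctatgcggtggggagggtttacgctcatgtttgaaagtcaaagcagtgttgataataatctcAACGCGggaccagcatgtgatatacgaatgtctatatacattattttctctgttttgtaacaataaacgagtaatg
SZF1, chr3:20775970-20776219, plus strand: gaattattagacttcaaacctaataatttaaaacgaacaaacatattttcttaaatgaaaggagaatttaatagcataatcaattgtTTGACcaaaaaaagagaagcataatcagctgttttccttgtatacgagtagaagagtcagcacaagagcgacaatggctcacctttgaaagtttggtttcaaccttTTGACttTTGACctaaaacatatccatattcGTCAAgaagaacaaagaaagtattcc
WRKY33, chr2:16107985-16108234, plus strand: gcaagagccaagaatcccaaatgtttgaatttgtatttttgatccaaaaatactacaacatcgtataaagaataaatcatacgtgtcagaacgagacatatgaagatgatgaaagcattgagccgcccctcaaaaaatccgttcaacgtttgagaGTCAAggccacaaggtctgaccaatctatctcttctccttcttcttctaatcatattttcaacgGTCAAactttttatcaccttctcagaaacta

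Counts of these motifs, on either strand, were taken over 300 bases (250 before to 50 after the start) for 449 genes called higher and for 17771 of all tested genes. The rapid stress response element was in 15.6% of promoters of genes called higher and in 3.82% of all. The letters CGCG within it, the core bound by calmodulin-binding CAMTA factors, were in 32.5% of promoters of genes called higher and in 14.1% of all. That count includes the longer motif. A W-box core was in 67.7% of promoters of genes called higher and in 50.1% of all. GAANNTTC was in 22.5% of promoters of genes called higher and in 11.3% of all. Without the heat shock list the share of GAANNTTC among genes called higher was 21.5%. In the 27 promoters of the heat shock list it was 40.7%, and a W-box core was in 40.7% of them as well. An extended heat shock element, in which the first bases of the short one recur after a gap, was in 25.9% of these promoters. It was in 2.0% of promoters of genes called higher and in 0.523% of all. Among genes called higher outside the heat shock list its share was 0.926%, so it was rare there. The GCC-box GCCGCC was in 4.23% of promoters of genes called higher and in 2.73% of all, and the dehydration-responsive core CCGAC was in 16.5% of promoters of genes called higher and in 16.6% of all. These shares are descriptions of sequence, not of binding. Genes called higher were also shorter, with a median of 1982 bp against 2439 bp over all tested genes, and 27.8% of them had 1 exon, against 12.8% of all. Their median level in replicates 2 and 3 was 5.49 RPKM, against 10.7 RPKM for all tested genes.

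Chaperones formed the list with the highest share of calls. Of 27 tested heat shock genes, 17 were called higher and none lower, and 25 had replicate 1 above both other libraries in every genotype. Over all tested genes the shares were 2.52% called higher and 13.4% with replicate 1 above both. The median difference of the list was 1.68, against -0.04 over all tested genes. Over the annotation, 22 of 213 genes named as heat shock proteins or chaperones were called higher (10.3%), with a median of 0.02. HSP17.6A, a cytosolic small heat shock protein, had 21.5 RPKM in C24/Col, 48.1 in Col/C24, 91.4 in C24 and 21.6 in Col in replicate 1. In replicates 2 and 3 the RPKM values were 2.62 and 2.01 for C24/Col, 2.07 and 1.26 for Col/C24, 8.08 and 8.60 for C24, and 1.45 and 0.49 for Col. The sets did not overlap, and C24 was highest in both. HSP70, the main inducible chaperone of its class, stood at 71.5, 121, 262 and 50.4 RPKM in replicate 1 of C24/Col, Col/C24, C24 and Col, against 8.26 to 30.4 RPKM in the others (2.79 ± 0.47). HSP90.1 had 28.6 to 111 RPKM in replicate 1 and 3.09 to 13.0 RPKM in the others (2.75 ± 0.34). HSFA2, a heat shock factor that is itself heat-induced, had 8.44 to 24.3 RPKM in replicate 1 and 1.34 to 3.24 RPKM in the others (2.11 ± 0.52). The chaperones of other compartments moved the same way, with HSP23.6 of mitochondria at 2.52 and HSP21 of chloroplasts at 1.54, both mean differences. The unfolded protein response of the endoplasmic reticulum had 1 of 14 genes called higher and a median of 0.08. That gene was BZIP60, a transcription factor of the response, with 29.8 to 47.4 RPKM in replicate 1 and 10.7 to 17.3 RPKM in the others.

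**Figure D2:**
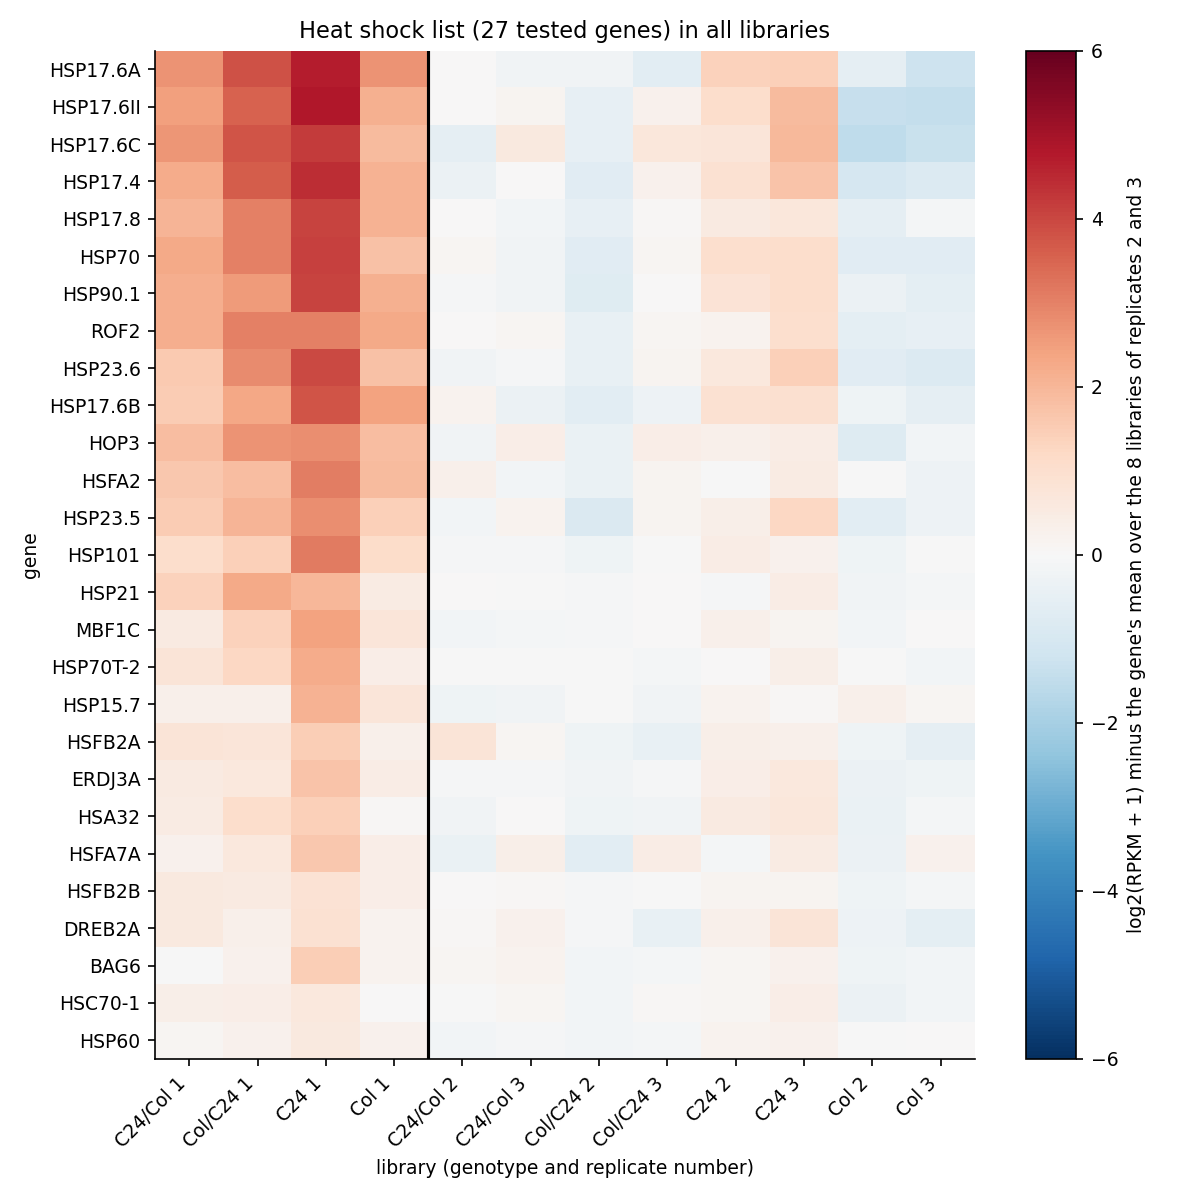
Each row is a tested gene of the heat shock list and each column a library, replicate 1 left of the black line; colour gives log2(RPKM + 1) minus the gene's mean over the 8 libraries of replicates 2 and 3. The 4 columns of replicate 1 are redder than the other 8 in nearly every row, most of all that of C24, and C24 replicates 2 and 3 lie above those of Col in the upper rows.

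Calmodulin-like genes known for their response to touch included 4 of 9 called higher (44.4%), against 2.52% of all tested genes. Of these 4, CML37 passed the filter through replicate 1 alone, at 1.04 to 7.2 RPKM there and 0 to 0.65 RPKM in the others. TCH3 was the most abundant of the leading genes, at 1109 RPKM in C24/Col, 1224 in Col/C24, 1094 in C24 and 983 in Col in replicate 1, against 194 to 315 RPKM in the others (2.28 ± 0.27). TCH2 had 46.1 to 157 RPKM in replicate 1 and 16.2 to 56.5 RPKM in the others, so that the sets overlapped across genotypes but not within any. CML38, a calmodulin-like protein, had a mean difference of 1.49 ± 0.48, with its smallest difference in C24/Col at 0.78. Over the annotation, 26 of 185 genes with calcium, calmodulin or EF-hand in their product name were called higher (14.1%), among them the calcium pump ACA1 (2.77).

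Transcription factors of rapid responses were called higher in numbers. Of 8 tested zinc finger genes 5 were called higher, with a list median of 1.68. Over the annotation, however, 10 of 353 genes with zinc finger in their product name were called higher (2.83%). That is close to the 2.52% of all tested genes. SZF1, a salt-inducible zinc finger protein, had 126, 115, 178 and 51.8 RPKM in replicate 1 of C24/Col, Col/C24, C24 and Col, against 10.2 to 39.2 RPKM in the others. The WRKY list had 10 of 18 called higher, none lower and a median of 1.04, and over the annotation the same number of 37 genes named WRKY were called higher (27.0%). WRKY40, a regulator of defence that acts with WRKY18, had 76.4 RPKM in C24/Col, 71.9 in Col/C24, 100 in C24 and 37.0 in Col in replicate 1. Its other libraries lay at 3.0 to 13.9 RPKM, and its mean difference was 3.23 ± 0.52. WRKY33, needed for camalexin synthesis and resistance to necrotrophic fungi, had 161, 143, 173 and 63.1 RPKM in replicate 1 of C24/Col, Col/C24, C24 and Col. In the others it had 11.2 to 21.2 RPKM (2.98 ± 0.56). WRKY46 (3.19) and WRKY18 (2.87) were close to it on the same scale. Col had the lowest replicate 1 level for WRKY18, WRKY33, WRKY40 and WRKY46. Of the ethylene response list 5 of 15 were called higher, all of them ERF factors, with ERF4 the highest at 45.5 to 104 RPKM in replicate 1 and 7.39 to 26.4 RPKM in the others (2.38 ± 0.32).

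Genes of pattern-triggered immunity, the response to conserved microbial molecules, had 10 of 24 called higher (41.7%) and a median of 0.83. Over all tested genes 2.52% were called higher. MPK3, a MAP kinase of that response, had 167 RPKM in C24/Col, 146 in Col/C24, 184 in C24 and 90.9 in Col in replicate 1, against 28.2 to 51.9 RPKM in the others (1.83 ± 0.37). The syntaxin SYP122 had 62.7 to 92.0 RPKM in replicate 1 and 9.98 to 28.9 RPKM in the others. The NADPH oxidase RBOHD (1.65), the kinase MKK4 (1.18) and the ubiquitin ligases PUB23 (2.11) and PUB24 (1.31) were called higher too, given as mean differences. FRK1, a common marker of the response, was under 0.1 RPKM in every library and was not tested. Of 17 salicylic acid genes 3 were called higher, and all 3 are known to act upstream of salicylic acid. CBP60G, a transcription factor for salicylic acid synthesis, had 46.5, 42.8, 51.9 and 24.1 RPKM in replicate 1 of C24/Col, Col/C24, C24 and Col, against 2.03 to 10.7 RPKM in the others. SARD1, its homologue, and PAD4, a lipase-like partner of EDS1, had mean differences of 1.79 and 1.22. PR1, the late marker of salicylic acid signalling, was not called, at 22.2, 3.40, 6.22 and 1.94 RPKM in replicate 1 of C24/Col, Col/C24, C24 and Col and at 0 to 11.1 RPKM in the others. Of 15 immune receptor genes 2 were called higher (13.3%), the helper receptors ADR1-L1 (1.23) and ADR1-L2 (1.27). Over the annotation, 17 of 123 genes named as TIR-NBS or disease resistance proteins were called higher (13.8%).

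The jasmonate list was mixed, with 5 of 22 called higher (22.7%, against 2.52% of all tested genes) and a median of 0.27. LOX4, a lipoxygenase of jasmonate synthesis, had 18.2 RPKM in C24/Col, 13.6 in Col/C24, 9.74 in C24 and 5.81 in Col in replicate 1, against 0.76 to 2.26 RPKM in the others (2.32 ± 0.60). It was among the genes with the hybrids above both parents in replicate 1. The repressor JAZ1 had 12.4 to 55.1 RPKM in replicate 1 and 2.30 to 18.0 RPKM in the others, with overlap across genotypes but not within any. Of 17 oxidative stress genes 3 were called higher. BCS1, a mitochondrial ATPase, led them with 4.71 to 26.0 RPKM in replicate 1 and 0.67 to 3.76 RPKM in the others. The other two, the glutathione transferases GSTF6 and GSTF7, are near-identical copies between which reads can be split, and their separate values are uncertain.

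Genes of carbon starvation and of hormone turnover and response held a few large rises. ERD5, a proline dehydrogenase, was nearly equal in all genotypes of replicate 1, at 231 RPKM in C24/Col, 228 in Col/C24, 232 in C24 and 244 in Col. In the other libraries it was 21.4 to 85.9 RPKM and was higher in replicate 3 than in replicate 2 in every genotype. GDH2, a glutamate dehydrogenase, had 119 to 201 RPKM in replicate 1 and 48.2 to 96.9 RPKM in the others. These were 2 of 18 starvation genes (11.1%), against 2.52% called higher over all tested genes. CYP707A3, which breaks down abscisic acid, was the 1 gene of 24 on the drought list called higher (1.72 ± 0.56). ARR7 and ARR6, cytokinin-induced repressors of cytokinin signalling, were the 2 of 21 growth hormone genes called higher (9.52%), and the list median was -0.11. ARR7 had a difference of 2.1 in C24/Col, 2.2 in Col/C24, 0.52 in C24 and 2.39 in Col. It was also higher in replicate 2 than in replicate 3 in every genotype, at 38.4 and 7.04 RPKM in Col.

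Several lists for other conditions and functions held no call. None of 13 cold, 6 hypoxia, 9 flavonoid, 24 cell division, 16 ribosome, 16 splicing or 16 glucosinolate and camalexin genes was called in either direction. Over all tested genes the shares were 2.52% higher and 0.0335% lower, so lists this short would hold few calls at those shares. At 1.5-fold the cold list had 2 higher and 1 lower, the splicing list 1 higher and the flavonoid list 1 lower. Replicate 1 was below both other libraries in every genotype for 5 cold and 6 ribosome genes, against 14.0% of all. It was above both for 3 cold genes, against 13.4% of all. COR15A, a cold-induced chloroplast protein, had 150 to 169 RPKM in replicate 1 and 163 to 231 RPKM in the others. COR47, another cold-regulated gene, went the other way, with 362 to 435 RPKM in replicate 1 and 242 to 322 RPKM in the others. Its mean difference was 0.55, under the threshold. Photosynthesis genes had a median of -0.12 and a range of -0.36 to 0.01 over 43 genes, none called. Of these, 12 had replicate 1 below both other libraries in every genotype and none had it above both. A one-way gap was also seen without replicate 1, as replicate 2 was above replicate 3 in every genotype for 17 photosynthesis genes and below it for none. RBCS1A, the small subunit of Rubisco, had 10260 to 11738 RPKM in replicate 1 and 10764 to 14207 RPKM in the others. These groups overlapped.

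**Figure D3:**
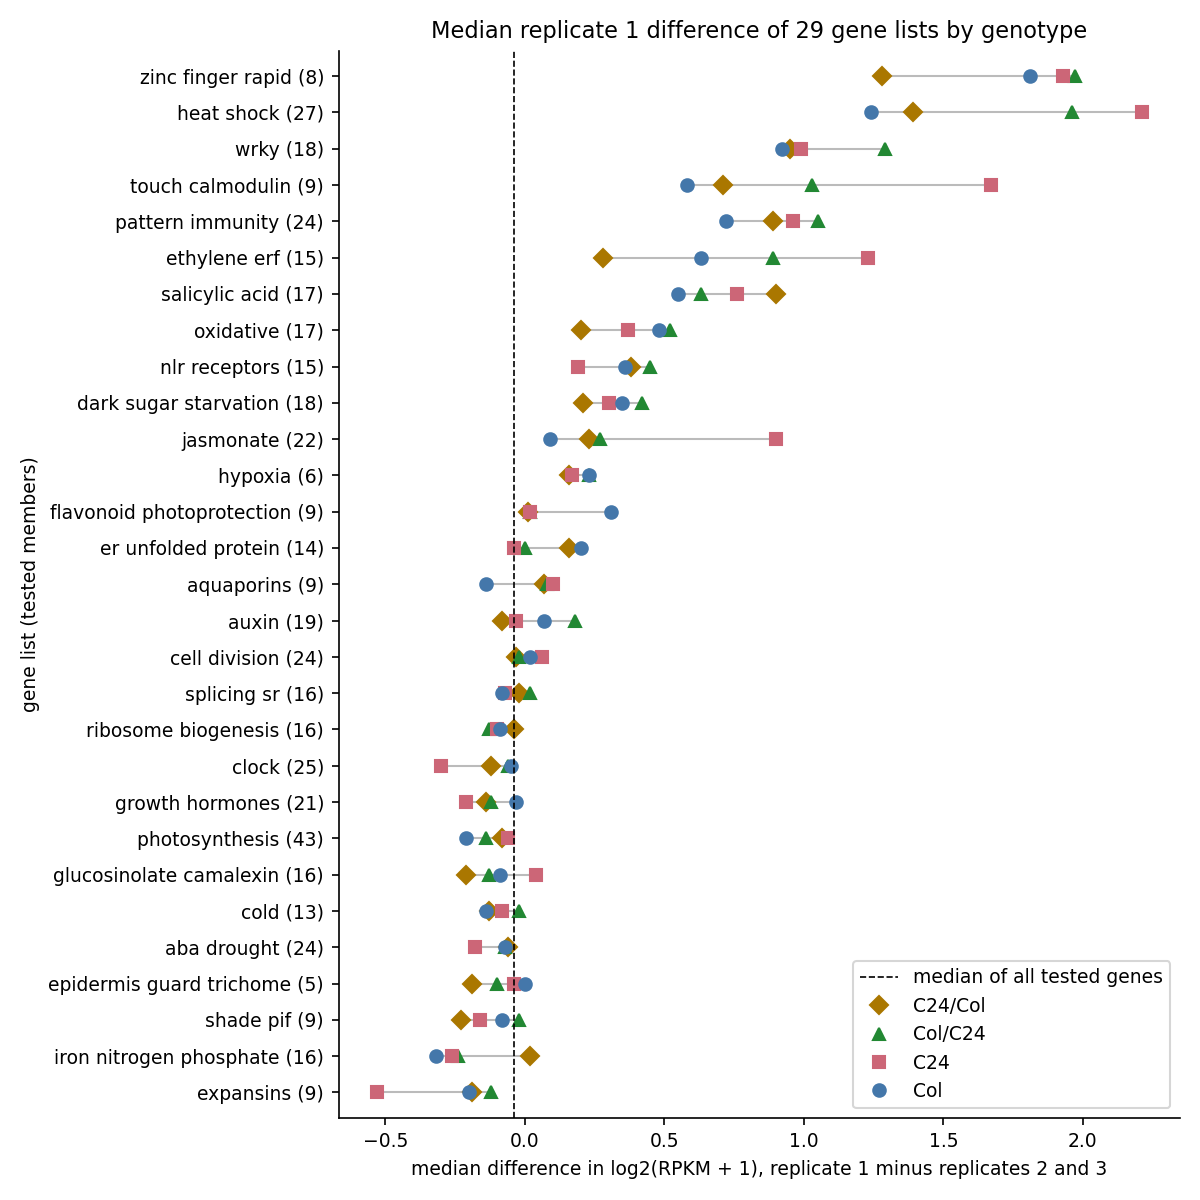
Each point is the median difference in log2(RPKM + 1), replicate 1 minus replicates 2 and 3, over the tested members of a gene list in 1 genotype, and the dashed line is the median of all tested genes at -0.04. Zinc finger, heat shock, WRKY, touch and pattern immunity lists lie to the right in all 4 genotypes, and C24 stands right of Col in each of these 5.

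The 6 genes called lower were EXPA16, XTH31, AT1G60590, IAA29, LTP4 and AT4G21215. The first 3 act on or are annotated to the cell wall, as an expansin, a xyloglucan endotransglycosylase and a pectin lyase-like protein. The call of LTP4 rests on low and scattered values. In C24 it had 0.43 RPKM in replicate 1 and 0.44 and 8.1 RPKM in replicates 2 and 3, and its difference in Col was -0.19. EXPA16 had 8.03 RPKM in C24/Col, 5.80 in Col/C24, 5.25 in C24 and 6.33 in Col in replicate 1, against 10.5 to 23.2 RPKM in the others (-1.22 ± 0.56). IAA29, an auxin response repressor, had 10.3, 11.4, 6.46 and 13.2 RPKM in replicate 1 of C24/Col, Col/C24, C24 and Col, against 18.0 to 33.0 RPKM in the others (-1.12 ± 0.46). Neither gene's groups overlapped. Of 25 clock genes 5 were lower and 1 was higher at 1.5-fold, against 0.446% lower and 5.24% higher over all tested genes. PRR5, a clock repressor, had 9.73, 8.62, 5.97 and 8.50 RPKM in replicate 1 of C24/Col, Col/C24, C24 and Col and 11.7 to 20.4 RPKM in the others. GRP7, a clock-controlled RNA-binding protein, had 382 to 646 RPKM in replicate 1 and 702 to 1198 RPKM in the others.

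The numbering also separated replicates 2 and 3 from each other. In every genotype, replicate 2 was above replicate 3 for 3447 genes (19.2%) and below it for 2862 genes (16.0%). Of the 451 genes called higher, 128 were in the first set and 79 in the second. Across genes, replicate 1 differences of 2 genotypes correlated at 0.67 to 0.83 (Pearson, 17927 genes, lowest for C24 with Col), and the differences between replicates 2 and 3 at 0.39 to 0.58. Genes are not independent replicates, and a genotype's values share its libraries.

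To compare the size of the rise between genotypes, genes were chosen as at least 2-fold higher in each of 3 genotypes and then read in the genotype left out. That genotype took no part in the choice of genes, but its replicate 1 library was chosen by its expression values like the others, so these values are a description. The median difference was 1.55 in C24/Col (275 genes), 1.98 in Col/C24 (241 genes), 1.72 in C24 (269 genes) and 1.26 in Col (329 genes). These are 4 different sets of genes, and all but that read in Col had to be 2-fold higher in Col. The choice thus contributes to the gaps between the medians. Over the 451 genes called higher, the same in all genotypes, the median difference was 1.38 in C24/Col, 1.61 in Col/C24, 1.52 in C24 and 1.19 in Col. In the genotype left out, replicate 1 was above both other libraries for 97.1% of these genes in C24/Col, 98.9% in C24 and 99.4% in Col, and for all 241 in Col/C24. A difference of at least 2-fold was less even, as 86.5% of the genes reached 2-fold in C24/Col, 98.8% in Col/C24, 88.5% in C24 and 72.3% in Col. Col had the smallest median and Col/C24 the largest in all 12 settings where all 4 could be computed. These settings change the processing or leave out 1 library of replicate 2 or 3. All keep the same 4 libraries of replicate 1, so the order was not tested on other such libraries. The gap of C24 over Col ran from 0.20 to 0.82 over these settings. Each genotype has 1 library of replicate 1, so a median over genes carries no error between plants.

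**Figure D4:**
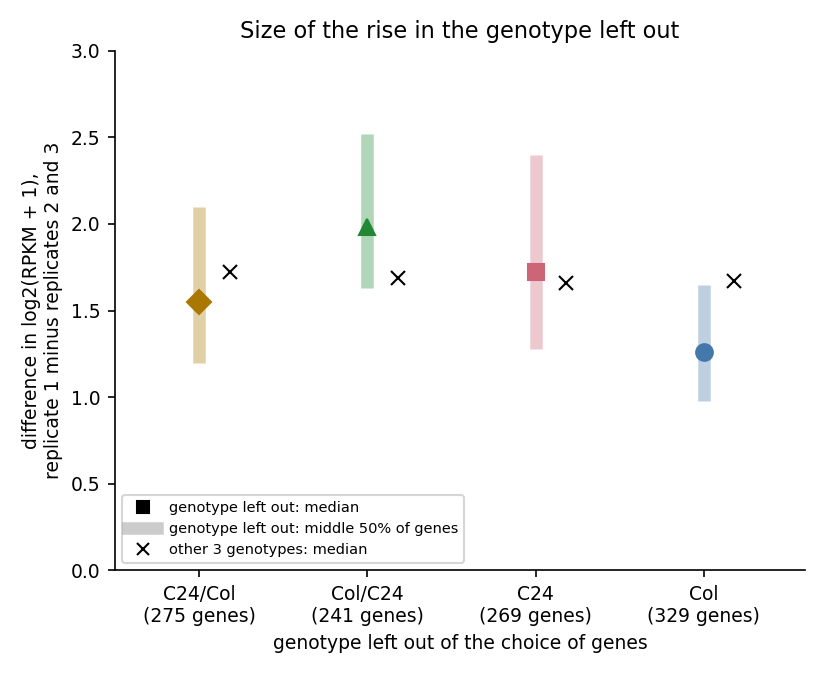
Coloured points are medians and bars the middle 50% of genes for the difference in log2(RPKM + 1) in the genotype left out of the choice of genes; crosses give the median of the other 3 genotypes for the same genes. Col lies at 1.26 with its cross at 1.67, and Col/C24 at 1.98 with its cross at 1.69. The crosses come from the values used to choose the genes, and the points do not. The choice thus raises the crosses, and the gap between a point and its cross cannot give a shortfall or excess of that genotype.

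Among the 451 genes called higher, the largest of the 4 differences was in C24/Col for 57, in Col/C24 for 214, in C24 for 157 and in Col for 23, and the smallest was in Col for 264. By level rather than difference, replicate 1 of C24 was highest for 225 genes and replicate 1 of Col lowest for 309. Replicate 1 of C24/Col lay between the parents' replicate 1 levels for 267 genes, above both for 158 and below both for 26. Replicate 1 of Col/C24 lay between them for 294 genes, above both for 137 and below both for 20. The median level of these genes in replicate 1 was 21.8 RPKM in C24/Col, 22.2 in Col/C24, 24.6 in C24 and 14.8 in Col. In replicate 2 it was 7.52, 5.25, 6.30 and 5.75 RPKM in C24/Col, Col/C24, C24 and Col, and in replicate 3 it was 5.93, 4.73, 7.41 and 4.34 RPKM. C24/Col thus had a higher level than Col/C24 without replicate 1 and about the same level in it.

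Gene by gene, the difference between genotypes was tested with limma across all genes (moderated variance, Benjamini-Hochberg adjusted p under 0.05). The test takes each single library of replicate 1 to vary as replicates 2 and 3 do. In this fit the replicate 1 difference passed the threshold between C24 and Col in no gene. The smallest adjusted p was 0.205, and 1164 genes had a p under 0.05 before adjustment. Hybrids against the mean of the parents also gave no gene (314 with a p under 0.05 before adjustment), as did C24/Col against Col/C24 (297), both also with the replicate number as a block. For C24 against Col the block, which takes out the shared gap between replicates 2 and 3, gave 121 genes with a larger difference in C24 (0.675%) and 54 with a smaller one (0.301%). That count rests on single libraries, since without Col replicate 2 it was 13 and 2 genes, and without Col replicate 3 it was 1 and 1. Of the 121 genes, 27 were among the 451 called higher.

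**Figure D5:**
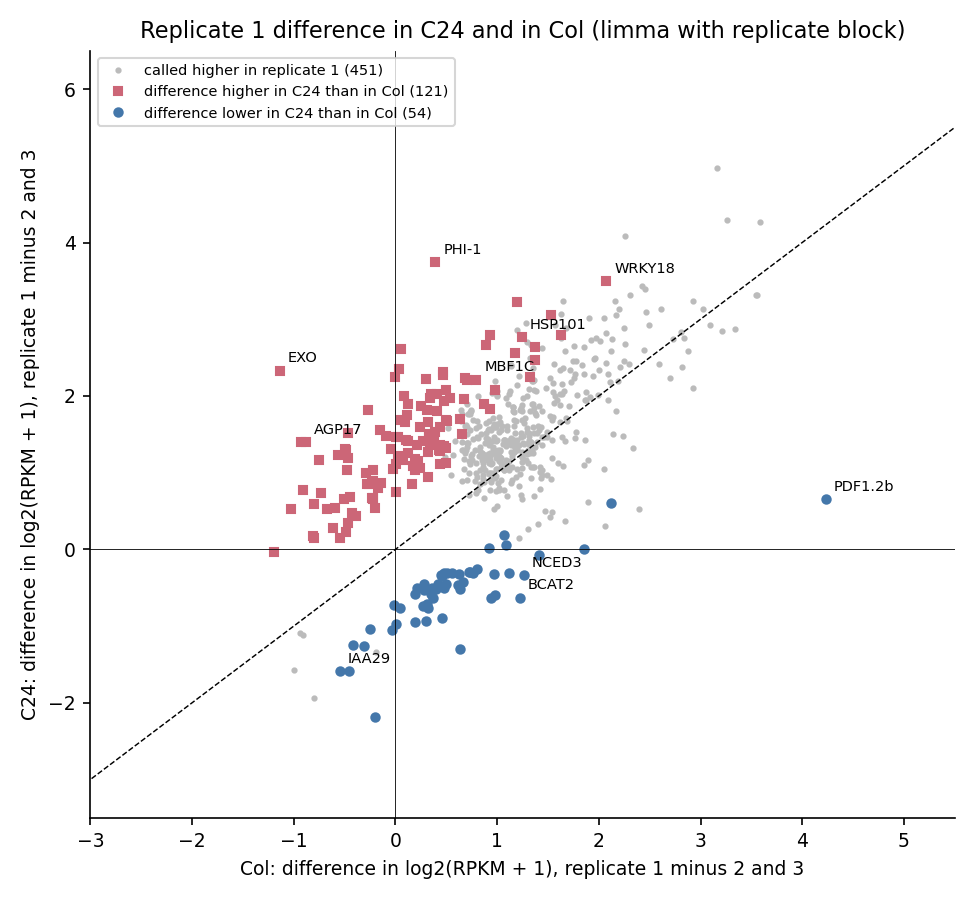
Replicate 1 difference in log2(RPKM + 1) of single genes in C24 (vertical) against Col (horizontal), with the line of equality dashed. Grey points are genes called higher; red squares (121) and blue circles (54) are genes whose difference was higher or lower in C24 than in Col in limma with the replicate block, a count that falls to 1 and 1 without Col replicate 3.

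Chaperones and wall proteins were among the genes with a larger difference in C24 than in Col under the block, and the adjusted p-values here are from that limma fit. HSP101, the chaperone that dissolves protein aggregates, had 9.21 RPKM in C24/Col, 12.3 in Col/C24, 41.4 in C24 and 9.55 in Col in replicate 1. In replicates 2 and 3 it had 5.59 and 4.85 RPKM in C24 and 3.14 and 3.81 RPKM in Col. Its difference was larger in C24 by 1.53 ± 0.20 (SE, log2 scale, adjusted p = 0.0155), against an adjusted p of 0.205 without the block. MBF1C, a coactivator of the heat response, had 78.2 RPKM in C24 and 23.4 in Col in replicate 1, against 15.4 to 17.0 RPKM in C24 and 12.1 to 14.2 RPKM in Col in replicates 2 and 3 (1.41 ± 0.16, adjusted p = 0.0122). Heat shock members that passed were 5 of 27, all larger in C24, and the others were HSP70T-2, HSP15.7 and BAG6. HSP17.6A did not pass, with a C24 minus Col difference of -0.26 ± 0.28 (adjusted p = 0.711). The WRKY list had 1 of 18, WRKY18 (1.43 ± 0.24, adjusted p = 0.0394), and the jasmonate list 2 of 22, OPR3, an enzyme of jasmonate synthesis (1.63 ± 0.21, adjusted p = 0.0153), and JAZ7.

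The 2 largest such differences were in EXO and PHI-1, related genes of extracellular proteins of the EXORDIUM family. PHI-1 had 60.6 RPKM in C24/Col, 64.9 in Col/C24, 278 in C24 and 17.5 in Col in replicate 1. Replicates 2 and 3 were far apart in every genotype, with RPKM values of 9.02 and 63.1 for C24/Col, 5.65 and 50.7 for Col/C24, 5.35 and 67.1 for C24, and 3.86 and 40.1 for Col. The C24 minus Col difference was 3.36 ± 0.25 with the block (adjusted p = 0.00331) and had an adjusted p of 0.853 without it. EXO had 342 RPKM in C24 and 21.5 RPKM in Col in replicate 1, and in replicates 2 and 3 it had 25.1 and 179 RPKM in C24 and 13.6 and 167 RPKM in Col (3.47 ± 0.31, adjusted p = 0.00738). The arabinogalactan protein AGP17 and the transcription factor BZIP53 showed the same arrangement, with replicate 3 above replicate 2 in every genotype and C24 highest in replicate 1.

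In the other direction, PDF1.2b, a plant defensin, had 6.51 RPKM in C24/Col, 2.19 in Col/C24, 2.16 in C24 and 17.75 in Col in replicate 1. It was listed at 0 in both other Col libraries and at 1.01 RPKM in both other C24 libraries. The C24 minus Col difference was -3.58 ± 0.42 (adjusted p = 0.0122 with the block, 0.205 without). BCAT2, an aminotransferase of branched-chain amino acids, had 10.6 RPKM in C24 and 28.9 RPKM in Col in replicate 1, and NCED3, a key enzyme of abscisic acid synthesis, 4.27 RPKM in C24 and 7.08 RPKM in Col. Their differences were smaller in C24, at -1.85 ± 0.22 (adjusted p = 0.0125) and -1.59 ± 0.25 (adjusted p = 0.0339). IAA29 and PRR5 fell further in C24 than in Col, by 1.03 ± 0.17 (adjusted p = 0.0385) and 1.13 ± 0.15 (adjusted p = 0.0163).

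Levels of C24 and Col were also compared without replicate 1. The reads had been aligned to TAIR10, a Col sequence. Whether C24 reads align as well as Col reads, gene by gene, was not tested, so a lower value in C24 need not be lower expression. Between replicates 2 and 3 of C24 and those of Col, limma without the block called 1667 genes higher in C24 (9.3%) and 1489 lower (8.31%), and with the block 3021 and 2640. Without any 1 of these 4 libraries, limma without the block called 746 to 890 genes higher in C24 and 682 to 760 lower. Of the genes whose difference passed under the block, HSP101 was higher in C24 here (adjusted p = 0.0363), while PHI-1 (0.853), EXO (0.891), WRKY18 (0.975) and MBF1C (0.107) did not pass at the adjusted p given for each. These levels come from the same libraries that the C24 and Col differences above are measured from. Of the 27 heat shock genes 17 were higher in C24, none lower, with a median of 0.86 on the log2 scale against 0.01 over all tested genes. HSP17.6A was higher by 2.29 ± 0.25 (SE, adjusted p = 0.00104), and HSP70, at 28.8 and 30.4 RPKM in C24 and 8.41 and 8.26 RPKM in Col, by 1.71 ± 0.24 (adjusted p = 0.00309). Zinc finger genes were higher in 4 of 8 cases, with SZF1 at 26.4 and 39.1 RPKM in C24 and 11.07 and 12.01 RPKM in Col (1.40 ± 0.28, adjusted p = 0.0138). WRKY40 was at 11.6 and 13.1 RPKM in C24 and 3.84 and 3.12 RPKM in Col (1.58 ± 0.32, adjusted p = 0.0156). The WRKY list as a whole did not share this, with 3 of 18 higher and 2 lower in C24 and a median of 0.06. Of the immune receptor list 2 of 15 were higher and 6 lower in C24. Over the 451 genes called higher, 88 were higher in C24 and 22 lower, with a median of 0.21.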

How the data were processed

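RNA was measured in 12 libraries, 3 each of C24/Col, Col/C24, C24 and Col. Reads had been aligned with TopHat to TAIR10, per the submitters' processing notes, but no label or header names the counting tool or annotation. The authors made and deposited 1 RPKM value per gene and library, in files without a header. The unit was read from the values, since low ones of a library, multiplied by gene length, fell on multiples of 1 constant. That spacing gave the depths, with 70.8% to 81.7% of low values whole within 0.15 of a read, and 3 reads on a gene of 1500 bp equal 0.074 to 0.129 RPKM (counting error only). Reads were not recovered, and no count model was run.

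Of 33559 identifiers, 567 listed more than once were left out. The other 32992 were named from TAIR10.1 (RefSeq), where 32236 matched. Analysis used log2(RPKM + 1), R 4.3.3, limma 3.58.1 with a variance trend, Python 3.11.15, numpy 2.4.6, pandas 2.3.3 and matplotlib 3.10.9, and was tested on simulated data. The model had a mean and a replicate 1 term per genotype, so that residuals come from replicates 2 and 3, and its p-values measure the spread between libraries, which may be technical.

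Over genes, deviations from genotype means correlated at 0.54 to 0.83 between libraries sharing a replicate number (18 pairs) and at -0.65 to 0.19 between those that do not (36 pairs). By the data the numbers pair the libraries, although no label states a shared batch. The block codes replicate 3 against 2.

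The libraries, the 32 gene lists (568 members, 490 tested) and the tests were chosen with earlier results of these data known. Genes named are up to 4 called per list, 2 of each list without a call, the 12 largest rises and falls with a symbol and at least 5 RPKM, and list members and the 8 largest per direction past the threshold between genotypes. As none passed without the block, the last were taken from the fit with it. AT5G39580, RBOHD, MKK4, PUB24, ACA1, PR1, FRK1, HSP21, HSP23.6, HSFA2, HSP90.1, HSP70, XTH31, AT1G60590, AT4G21215, AT3G15200 and NDR1 were named after their values were seen.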

Additional observations from a re-analysis of the deposited data

Results flagged for a closer look

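Among 110 groups of samples examined, 8 had a value far from the others, and chance flags about 1 group in 20. For 7 genes the outlying value was the replicate 1 difference, in log2(RPKM + 1), of 1 of the 4 genotypes. CML38 was low in C24/Col at 0.78, WRKY40 high in Col/C24 at 4.01, and the seed storage gene CRC high in Col/C24 at 4.55. In C24, HSP15.7 was high at 1.97, while ARR7 was low at 0.52 and NCED3 low at -0.34. The aquaporin gene DELTA-TIP was low in Col at -0.14. The summed RPKM of C24 replicate 1, 732000, stood above the other 3 libraries of replicate 1. The replicate 1 difference itself differed between C24 and Col in 175 genes in limma with the replicate block, and in none without it.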

How the results depend on the processing

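The count of genes called higher, 451, ran from 386 to 577 under the other pseudocount, filters, scaling, single references, removal of the 4 libraries above 2% ribosomal RNA (455) and each library left out (408 to 501), and 386 to 451 of the 451 genes were among those called. The 6 called lower were 4 (without C24/Col replicate 2) to 11 (without Col replicate 1) with a library left out, 17 at a pseudocount of 0.1, 19 against replicate 3 alone, 14 against replicate 2 alone and 13 without those 4 libraries. Other call rules gave 940 higher and 80 lower (1.5-fold), 2376 and 2229 (limma), 2976 and 3140 (limma with the replicate block) and 2337 and 2252 (limma with ribosomal RNA share).

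The size in the genotype left out was 1.46 in Col, 1.84 in C24 and 2.12 in Col/C24 at a pseudocount of 0.1, and in C24 1.80 at a minimum of 5 RPKM and 1.86 with median-of-ratios scaling. With a library left out it was 1.35 to 1.77 in C24/Col, 1.75 to 2.09 in Col/C24, 1.52 to 1.97 in C24 and 1.15 to 1.40 in Col.

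Between C24 and Col no gene passed without the block in the 10 fits that left out a library (replicate 1 of C24 or of Col cannot be left out), and 43 passed without a filter on low values. With the replicate block it was 175, with scaling 263, with ribosomal RNA share 81, with a pseudocount of 0.1 117, and with a library left out 2 (Col replicate 3), 15 (Col replicate 2), 126 (C24 replicate 2), 159 (C24 replicate 3) or, for libraries of the hybrids, 168, 170, 172 or 182. Hybrids against parents gave 0 genes, 25 without the filter, 0 or 1 with a library left out and 0 to 3 with the block too. C24/Col against Col/C24 gave 0, 42 without the filter, 0 to 11 with a library left out (11 without C24/Col replicate 2) and 0 to 13 with the block too. The cause of these changes was not tested.

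Of 1554 values recomputed for 104 named genes, 16 moved by more than 1 SD, 10 of them at a pseudocount of 0.1, and none reversed. The setting without the 4 libraries above 2% ribosomal RNA leaves Col and Col/C24 without a library of replicate 1, and it was run for the counts of calls alone. The pseudocount, scaling, covariate and leave-one-out fits with the block, the single references and that removal were chosen after seeing the data. With 1 library of replicate 1 per genotype, no difference between genotypes has its own replicate.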
